A study of Homo sapiens with 3 samples.

Results

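The 39 genes described here make cholesterol and fatty acids, control that synthesis, move sterols within the cell, or export them. They were taken by symbol from a list of sterol and lipid synthesis, control, transport and export genes, out of 60609 genes in the count tables. They fall into 6 branches: 7 genes of the mevalonate arm, 11 of the squalene and sterol arm, 5 that control the sterol-sensing transcription factors, 3 of transport and storage, 5 of the liver X receptors (LXR) and sterol export, and 8 of the fatty acid arm. RNA was sequenced from H209, a human cell line established from small cell lung cancer, in 3 libraries: sh490 and sh1362, which carried different hairpins against the Src-family kinase YES1, and shGFP, the control, whose hairpin targets a jellyfish gene that human cells lack. Every hairpin was delivered by lentivirus in the Tet-pLKO-puro vector, and the labels give all 3 libraries the same induction with doxycycline, at 1 µg/mL every 2 days. Each hairpin was measured in 1 library. Whether the cells of a library were a clone or a pool, how long induction lasted and which sequences the hairpins had are points not given in the sources used here.

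Cholesterol and fatty acids are built from acetyl-CoA. The mevalonate arm turns it into isoprenoids, the sterol arm joins and cyclises these into cholesterol, and the fatty acid arm makes and desaturates acyl chains. Transcription of most of these genes is driven by the SREBP factors, which sit in the endoplasmic reticulum with their escort SCAP. When sterols are plentiful the INSIG proteins hold SCAP there. When sterols are scarce SCAP carries SREBP to the Golgi, where proteases release its active part. INSIG1 is itself an SREBP target, so its transcript is often read together with those of the enzymes. LXR, activated by oxysterols, turns on export through ABCA1 and ABCG1.

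Sequencing depth was 7791747 counts for sh490, 7421552 for sh1362 and 4899006 for shGFP. YES1 stood at 6.79% of the shGFP level in sh490 and 9.66% in sh1362. The line's neuroendocrine markers were present in every library, all 8 with counts, and summed to 2742 CPM (counts scaled to library size) in sh490, 3623 in sh1362 and 2628 in shGFP. Red cell markers summed to 734.9 CPM in shGFP, nearly all of it adult globin, against 18.7 in sh490 and 20.4 in sh1362, with 5 or 6 of the 10 at 0 counts. Leukocyte markers summed to 2.27, 3.79 and 10.5 CPM in sh490, sh1362 and shGFP, with 6, 5 and 2 of 10 at 0, and markers of fibroblasts and hepatocytes stayed between 6.90 and 26.0 CPM. The mitochondrial genome gave 7.78% of the counts in sh1362, against 5.50% in sh490 and 5.47% in shGFP. The part of these differences in the results below was not tested beyond leaving the globin or the mitochondrial genes out.

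The stretches of 250 bases before the RefSeq start sites (GRCh38.p14) of 4 genes on which the comparisons turn are printed here, 5′ to 3′ on the gene's strand. INSIG1 and SREBF2 were far lower with sh1362, INSIG2 lay higher in sh1362 than in sh490, and ABCA1 was lower with both hairpins. Capitals mark the sterol regulatory element core TCACNCCAC, the CCAAT box, the GC box GGGCGG and the E-box CACGTG, each searched on both strands, so that adjoining or overlapping matches run together.
INSIG1 (chr7:155297628-155297877, plus strand): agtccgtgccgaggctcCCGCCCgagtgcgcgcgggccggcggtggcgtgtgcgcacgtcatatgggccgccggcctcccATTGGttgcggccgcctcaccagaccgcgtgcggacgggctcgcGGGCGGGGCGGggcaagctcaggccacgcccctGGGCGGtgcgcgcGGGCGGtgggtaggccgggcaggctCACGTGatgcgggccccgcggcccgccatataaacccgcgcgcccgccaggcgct
SREBF2 (chr22:41832855-41833104, plus strand): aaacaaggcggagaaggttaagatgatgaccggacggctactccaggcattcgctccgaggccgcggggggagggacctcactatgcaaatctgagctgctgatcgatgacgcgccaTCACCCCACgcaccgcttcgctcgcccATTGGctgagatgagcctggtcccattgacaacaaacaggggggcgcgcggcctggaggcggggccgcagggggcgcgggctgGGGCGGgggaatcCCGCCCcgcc
INSIG2 (chr2:118088221-118088470, plus strand): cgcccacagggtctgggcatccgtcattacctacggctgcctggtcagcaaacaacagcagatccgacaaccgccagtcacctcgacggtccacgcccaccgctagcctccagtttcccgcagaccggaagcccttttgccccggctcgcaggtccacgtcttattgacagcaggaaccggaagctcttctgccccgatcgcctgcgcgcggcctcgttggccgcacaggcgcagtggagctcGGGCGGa
ABCA1 (chr9:104928156-104928405, minus strand): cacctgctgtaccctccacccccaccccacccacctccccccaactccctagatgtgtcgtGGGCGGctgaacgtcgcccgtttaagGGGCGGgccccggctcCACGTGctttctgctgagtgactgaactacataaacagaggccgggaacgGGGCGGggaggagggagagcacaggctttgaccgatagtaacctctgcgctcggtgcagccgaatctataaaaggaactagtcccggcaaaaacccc
The sterol regulatory element core matched once among the 4 windows, in SREBF2, beginning 133 bases before the start. INSIG1 held 1 CCAAT box, 5 GC boxes and 1 E-box, SREBF2 1 CCAAT box and 2 GC boxes, INSIG2 1 GC box, and ABCA1 3 GC boxes and 1 E-box. A match is a string of letters and shows no binding, and a missing match does not show that an element is absent.

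Windows were found in RefSeq for 34 of the 39 members, and not for ACAT2, FDFT1, SQLE, ABCG1 and FASN. Each member counts with 1 window, while the background shares count every window, and a gene can have several. A CCAAT box stood in 19 of the 34, or 55.9%, against 32.0% of all 35116 windows and 33.6% of windows of genes averaging at least 5 CPM. The shares for the GC box were 91.2%, 42.6% and 63.1%, and for the E-box 11.8%, 6.34% and 8.44%. Only SREBF2 among the 34 held the sterol regulatory element core, which 0.883% of all windows held. Elements spelled otherwise or lying outside the window were not searched for, so the other members may still hold one. Members with a CCAAT box (n = 19) had a median log2 difference of -0.54 between the hairpins, sh1362 over sh490. Those without it (n = 14, CYP51A1 left out) had -0.38. Against shGFP the order was the opposite, at -0.37 with the box and -0.58 without it in sh1362, and -0.10 and -0.22 in sh490.

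Compared per exon length, mean levels of the 38 members that could be measured ran from 5.31 to 516 TPM. TPM scales counts by exon length and library. SCD, the desaturase that makes monounsaturated fatty acids, stood highest, at 621 TPM in sh490, 415 in sh1362 and 513 in shGFP. MSMO1, DHCR7 and IDI1, enzymes of the sterol and mevalonate arms, followed with means of 284, 253 and 218 TPM. At the other end, the LXR genes NR1H3 and NR1H2 and the exporters ABCG1 and ABCA1 had means of 5.31 to 7.46 TPM. SREBF2 was at 110 TPM on average and its relative SREBF1 at 9.37. SREBF2 therefore exceeded SREBF1 in every library, with 129, 41.9 and 159 TPM in sh490, sh1362 and shGFP against 10.0, 8.72 and 9.40.

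**Figure D1:**
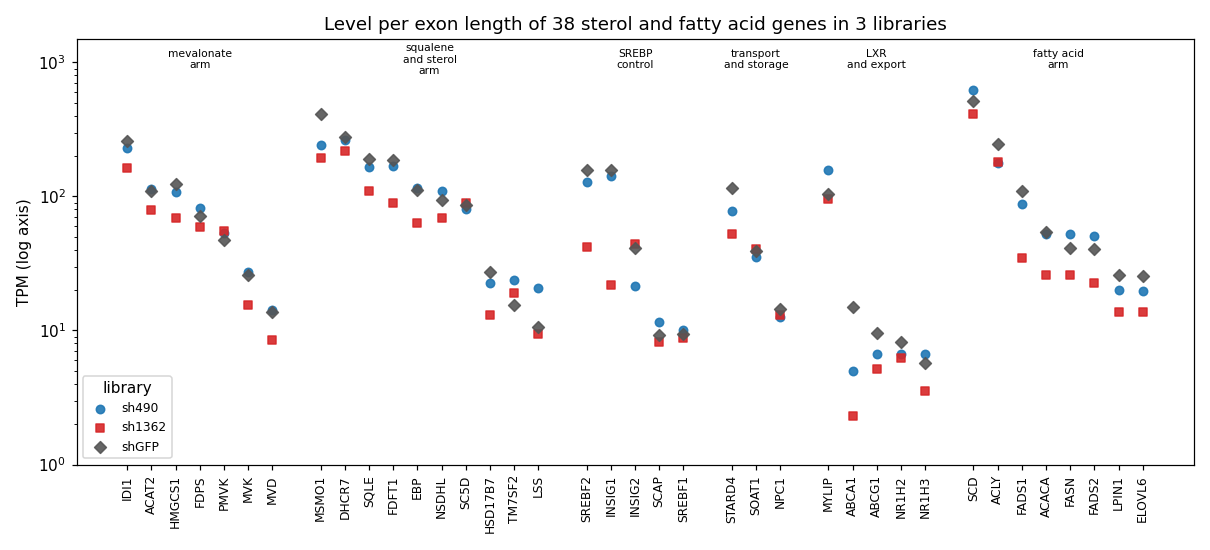
TPM (log axis) of the 38 members averaging at least 5 CPM, grouped by branch and ordered by mean level, with 1 point for each library. In most columns the red square of sh1362 is the lowest point, most clearly for INSIG1 at 21.8 TPM against 143 in sh490 and 159 in shGFP.

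Most members lay lower in sh1362 than in shGFP, and sh490 lay closer to the control. Among the 38 members averaging at least 5 CPM, 33 were below shGFP in sh1362 and 22 in sh490, where 50.8% and 49.9% of all 11634 such genes lay below. The median log2 difference from shGFP was -0.59 over the members with sh1362 (all genes -0.01) and -0.18 with sh490 (all genes 0.00). At least 2-fold from shGFP with sh1362 were 6 of 38 members, or 15.8%, where 9.29% of all genes were in either direction (698 lower and 383 higher). With sh490 it was 1 of 38, or 2.63%, against 2.82% of all genes (165 lower and 163 higher), which is no more than the background. All 6 members with sh1362, and the 1 with sh490, were lower. The 6 include INSIG1, whose low value with sh1362 was known when the genes were chosen. The exact 95% counting interval of the ratio to shGFP did not include equal levels for 26 of 38 members with sh1362 and 24 with sh490, or 68.4% and 63.2%, where 55.9% and 42.7% of all genes passed the same interval. The interval narrows as counts rise, so that genes with high counts pass it more often. Both comparisons use the same shGFP library. In bulk RNA, fewer cells of a type and less RNA per cell cannot be told apart.

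In the edgeR quasi-likelihood test of both hairpins against shGFP, 0 of 39 members passed at a Benjamini-Hochberg adjusted p under 0.05, against 0.0255% of all 15708 genes tested. Unadjusted, 3 members were under 0.05, or 7.69%, and all 3 were lower: ABCA1, MSMO1 and STARD4. All genes gave 4.35% in either direction and 2.08% lower. DESeq2 and limma-voom called 0 members as well, and edgeR run on the unfiltered table called 1, ABCA1. This test rests on 1 residual degree of freedom, assumes that the lone control varies like the hairpins, and counts the distance between the hairpins as error. In simulated data with 200 changed genes it recovered 10% of 2-fold and 74% of 4-fold changes, with 9 false calls. The simulation gave both hairpins the same true change, so it does not cover genes on which the hairpins differ.

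**Figure D2:**
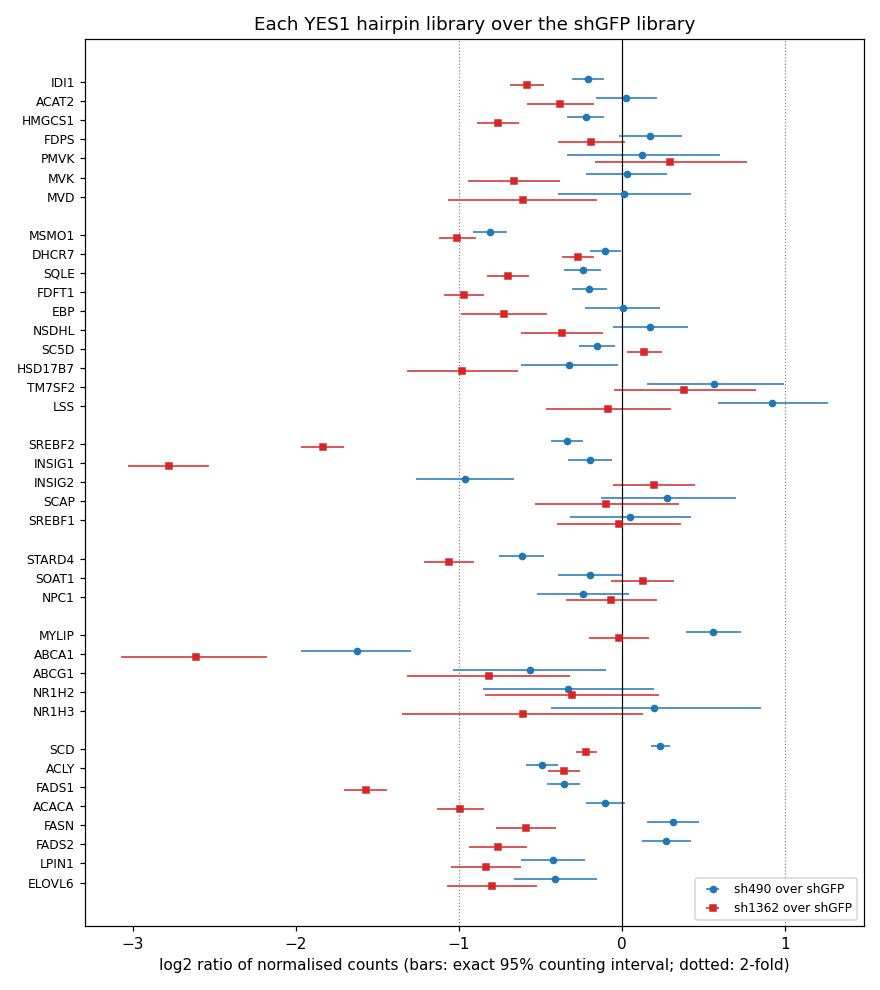
log2 ratio of normalised counts over shGFP, without a prior count, for sh490 (circles) and sh1362 (squares); bars are exact 95% counting intervals and dotted lines mark 2-fold. Only ABCA1 lies beyond 2-fold lower with both hairpins, and INSIG1, SREBF2 and FADS1 do so with sh1362 alone, as do STARD4 and MSMO1 by a small margin.

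Among the 5 genes that control SREBP, INSIG1 and SREBF2 were more than 2-fold lower in sh1362 than in either other library. INSIG1 (chromosome 7, 155297776 to 155310235, plus strand of GRCh38), which holds SCAP in the endoplasmic reticulum, had 1060 counts with sh490, 165 with sh1362 and 741 with shGFP. That is 134, 22.3 and 153 normalised CPM, so that sh490 and shGFP lay close together and sh1362 far below. Its level was 14.6% of shGFP in sh1362 (exact 95% counting interval 12.2 to 17.3) and 87.3% in sh490 (79.4 to 96.0). Its low value with sh1362 was known when the genes were chosen and is a description.

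SREBF2 (chromosome 22, 41833079 to 41907307, plus strand), which encodes the SREBP that chiefly drives sterol genes, had 1988, 656 and 1535 counts, or 251, 88.8 and 317 CPM, in sh490, sh1362 and shGFP. It followed the same order as INSIG1, at 28.0% of shGFP with sh1362 (25.5 to 30.7) and 79.0% with sh490 (73.9 to 84.5). INSIG2 (chromosome 2, 118088452 to 118110997, plus strand), the relative of INSIG1 with the same retention role, had 174, 362 and 207 counts, or 21.9, 49.0 and 42.8 CPM. Here the low library was sh490, at 51.3% of shGFP (41.7 to 63.0), while sh1362 was at 115% with an interval that includes 100 (96.3 to 136.5). SREBF1, the SREBP gene of fatty acid synthesis, was nearly level at 21.2, 20.2 and 20.5 CPM, and SCAP stood at 18.8, 14.5 and 15.5 CPM. For both of these, the counting interval of each hairpin's ratio to shGFP included no difference. In edgeR's test of both hairpins the adjusted p was 0.986 for INSIG1, SREBF2 and INSIG2.

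Summed over its 5 genes, SREBP control amounted to 549.3 CPM in shGFP, 446.3 in sh490 and 194.8 in sh1362. INSIG1 and SREBF2 made up most of this sum. The branch's median log2 difference with sh1362 was only -0.10, since SREBF1, SCAP and INSIG2 lay near the control.

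In the mevalonate arm, 6 of 7 genes were lower in sh1362 than in shGFP and 2 of 7 in sh490, with median log2 differences of -0.58 and 0.03; none was 2-fold apart. HMGCS1, which makes HMG-CoA, had 185 CPM in sh490, 128 in sh1362 and 216 in shGFP, log2 differences from shGFP of -0.22 and -0.76 with sh490 and sh1362. MVK, the mevalonate kinase, had the arm's largest difference between hairpins, with 361, 208 and 216 counts and 45.5, 28.2 and 44.7 CPM. Its sh490 and shGFP values nearly coincided, and sh1362 was at 63.1% of shGFP (51.9 to 76.7). IDI1, which isomerises isopentenyl diphosphate, had 258, 199 and 298 CPM in sh490, sh1362 and shGFP. ACAT2, MVD and FDPS lay between -0.60 and -0.19 (log2) with sh1362 and between 0.01 and 0.17 with sh490. PMVK, the next kinase of the arm, was the exception at 0.29 with sh1362. With 114 counts there and 61 in shGFP, its interval included no difference.

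The squalene and sterol arm was lower in sh1362 for 8 of its 10 measurable genes and in sh490 for 6, with medians of -0.53 and -0.13. MSMO1, which removes methyl groups from sterol intermediates, was low with both hairpins: 178 CPM in sh490 and 155 in sh1362 against 313 in shGFP. It was 57.1% (53.0 to 61.4) and 49.7% (45.9 to 53.6) of shGFP, just past 2-fold with sh1362. In edgeR its log2 fold was -0.91 (SE 0.26), with an unadjusted p of 0.00835 and an adjusted p of 0.986. FDFT1, the squalene synthase, had 224, 131 and 257 CPM, and SQLE, the squalene epoxidase, 182, 133 and 216. For both, sh490 lay nearer to shGFP than sh1362 did.

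LSS, which closes squalene epoxide into the first sterol, gave another order. It had 304, 141 and 98 counts, or 38.3, 19.1 and 20.3 CPM, in sh490, sh1362 and shGFP, so that sh490 was the high library at 189% of shGFP (150 to 240). TM7SF2, a sterol reductase, was higher than shGFP with both, at log2 0.56 and 0.37. With sh1362 its interval included no difference (96.5 to 176.7% of shGFP). HSD17B7 and EBP, which act after lanosterol in the arm, were at -0.97 and -0.72 with sh1362 and at -0.32 and 0.00 with sh490. DHCR7, a reductase near the end of the arm, differed little, at 284, 253 and 305 CPM, and SC5D was slightly above shGFP with sh1362 (log2 0.13). NSDHL was at 0.17 with sh490 and -0.37 with sh1362.

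CYP51A1, the lanosterol demethylase, could not be measured. Its counts were 11, 0 and 6 in sh490, sh1362 and shGFP, where a count of 0 allows up to 0.404 CPM. Of its 3529 exon bases 84.5% are shared with other annotated genes, 2844 of them with ENSG00000285772 on the same strand, and the counting program's defaults leave out reads that overlap 2 genes. ENSG00000285772 had 0 counts in every library. Among the other members, HMGCS1 shared 37.7% of its exon bases, EBP 36.4%, ACAT2 22.2% and NR1H2 22.1%, and 19 of the 39 shared none. Levels of genes that share exon bases may be understated.

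**Figure D3:**
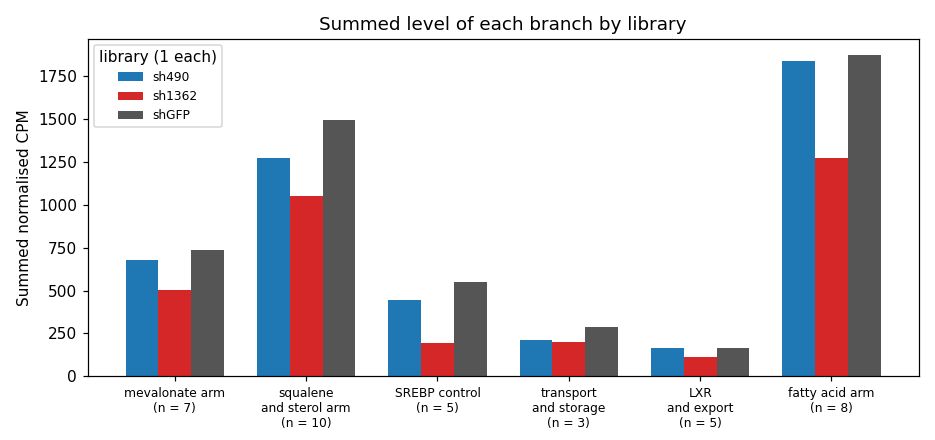
Normalised CPM summed over the measured genes of each branch, 1 bar for each library; CYP51A1 is left out. The red bar of sh1362 is the lowest in all 6 branches. As a share of the shGFP sum it is lowest in SREBP control, at 35.5%. The gap in CPM is widest in the fatty acid arm, at 1275 in sh1362 against 1875 in shGFP.

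Among transport and storage genes, STARD4, a carrier of cholesterol in the cytosol, was lower with both hairpins. It had 902 counts with sh490, 617 with sh1362 and 844 with shGFP, or 114, 83.5 and 174 CPM, which put both hairpin libraries below the control. Relative to shGFP it stood at 65.2% (59.3 to 71.7) and 47.9% (43.1 to 53.2), and its edgeR log2 fold was -0.82 (SE 0.29, unadjusted p 0.0223, adjusted p 0.986). NPC1, which moves cholesterol out of lysosomes, had 31.7, 35.7 and 37.4 CPM, and SOAT1, which esterifies cholesterol for storage, 63.7, 79.6 and 73.0. Neither NPC1 nor SOAT1 left shGFP beyond counting error with either hairpin.

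ABCA1 (chromosome 9, 104781006 to 104928155, minus strand), the exporter that loads cholesterol onto apolipoproteins, was the only member at least 2-fold lower with both hairpins, as 0.593% of all genes were. No member was 2-fold higher with both, against 0.808% of all genes. Its counts were 115 in sh490, 54 in sh1362 and 217 in the control, or 14.5, 7.31 and 44.9 CPM, the control being highest. The hairpin libraries reached 32.3% (25.6 to 40.7) and 16.3% (11.9 to 22.0) of shGFP. Its edgeR log2 fold was -2.04 (SE 0.43), with an unadjusted p of 0.00173 and an adjusted p of 0.986. Without the filter on low counts the adjusted p was 0.000205, with 0.210% of all genes called; over the alternatives tried it ran from that value to 1.00. ABCA1 shared no exon bases with another gene.

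ABCG1, which passes sterol to lipoprotein particles, had 83, 65 and 75 counts, or 10.5, 8.80 and 15.5 CPM, in sh490, sh1362 and shGFP. Its log2 differences from shGFP were -0.55 and -0.80. MYLIP, an LXR-induced ubiquitin ligase, lay the other way with sh490, at 124 CPM against 83.1 in sh1362 and 84.3 in shGFP. NR1H2 (73, 69 and 56 counts) and NR1H3 (62, 33 and 33), which encode the LXR proteins, did not leave shGFP beyond counting error. NR1H3 had the branch's smallest counts, and its ratio to shGFP with sh1362 could lie anywhere from 39.2 to 109.5%. The LXR targets thus did not share a direction with sh490: ABCA1 and ABCG1 were lower and MYLIP was higher.

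All 8 genes of the fatty acid arm were lower in sh1362 than in shGFP, each beyond counting error, with a median log2 difference of -0.78. With sh490 5 of 8 were lower and the median was -0.23. FADS1 (chromosome 11, 61799627 to 61829318, minus strand), a desaturase of polyunsaturated fatty acids, had 1823 counts with sh490, 731 with sh1362 and 1425 with shGFP, or 230, 99.0 and 295 CPM. It was at 33.6% of shGFP with sh1362 (30.7 to 36.8) and 78.1% with sh490 (72.8 to 83.7). FADS2, its neighbour on chromosome 11 and the enzyme before it in the pathway, had 1081, 493 and 547 counts, or 136, 66.7 and 113 CPM. FADS2 was above the control with sh490 at 121% (109 to 134) and below it with sh1362 at 59.0% (52.2 to 66.8). The pair are on opposite strands and share 490 exon bases, where reads cannot be assigned without strand.

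ACACA, which makes malonyl-CoA, had 175, 94.4 and 188 CPM in sh490, sh1362 and shGFP, and lay just inside 2-fold with sh1362 at log2 -0.99. FASN, the fatty acid synthase, had 126, 67.4 and 101 CPM, and SCD 837, 610 and 711; in both, sh490 was above the control and sh1362 below. ACLY, which supplies cytosolic acetyl-CoA, was lower with both hairpins to a similar extent, at 239, 263 and 336 CPM. ELOVL6, an elongase, and LPIN1, a phosphatidate phosphatase, were lower with both, at -0.41 and -0.42 with sh490 and -0.79 and -0.83 with sh1362.

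The hairpin libraries were then set against each other, a comparison that does not use shGFP. Of the 38 members 31 were lower in sh1362 than in sh490, with a median log2 difference of -0.45, where 51.7% of all genes were lower and their median was -0.02. At least 2-fold lower in sh1362 were 4 of 38 members, or 10.5%, against 3.88% of all genes: INSIG1, SREBF2, FADS1 and FADS2. The fall of INSIG1 with sh1362 was known when the genes were chosen, so this share is a description and no test of the set. INSIG2 alone was 2-fold higher, 2.63% of members against 2.02% of all genes. For 32 of the 38, or 84.2%, the exact counting interval did not include equal levels, against 55.3% of all genes. These are differences between 1 library and another, with no replicate check.

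INSIG1 in sh1362 was 16.7% of its sh490 level (14.1 to 19.7). With a prior count of 2 its log2 difference was the lowest of all 11634 genes. This rank is a description, since the fall of INSIG1 was known when the genes were chosen. SREBF2 was at 35.4% (32.4 to 38.7), rank 118 from the lowest, FADS1 at 43.0% (39.5 to 46.9) and FADS2 at 49.0% (43.9 to 54.5). INSIG2 was at 223% (186 to 269), rank 145 from the highest. LSS was at 49.8% (40.5 to 61.0) and ABCA1 at 50.4% (35.8 to 70.2). These percentages carry no prior count. The ranks and the 2-fold counts use a prior count of 2. With it LSS was at log2 -0.99, just short of 2-fold, and FADS2 at -1.03. By branch the medians were -0.67 in the fatty acid arm, -0.58 in LXR and export, -0.50 in the sterol arm, -0.40 in the mevalonate arm, -0.37 in SREBP control and 0.17 in transport and storage. This order depends on the filter: over genes averaging at least 20 CPM, SREBP control was at -0.78 and LXR and export at -0.77. SOAT1 (log2 0.32) and SC5D (0.29) lay higher in sh1362, and ABCG1, DHCR7 and MSMO1 differed between the hairpins by -0.24, -0.17 and -0.20.

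**Figure D4:**
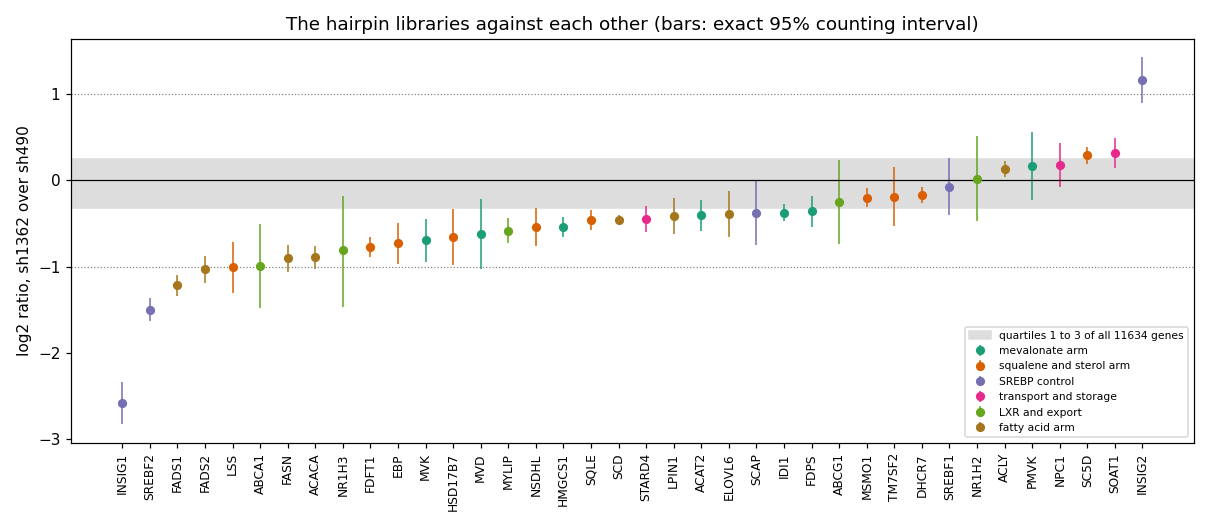
log2 ratio of sh1362 over sh490 for 38 members, without a prior count, ordered from lowest to highest and coloured by branch, with exact 95% counting intervals. The grey band holds the middle of all 11634 genes (log2 -0.31 to 0.25, quartiles 1 to 3), from values with a prior count of 2. INSIG1 and SREBF2 lie far below it and INSIG2 far above.

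A further list held 74 lipid genes outside the 39. Of these 58 averaged at least 5 CPM; 35 were below shGFP in sh1362 and 31 in sh490, with median log2 differences of -0.08 and -0.02. None of the 65 tested passed edgeR's test at an adjusted p under 0.05, against 0.0255% of all genes. Unadjusted, 2 of the 65 were under 0.05 in that test, where all genes gave 4.35%. DESeq2 and limma-voom called 0. At least 2-fold from shGFP were 6 of the 58 with sh1362, or 10.3%, all lower, where 9.29% of all genes were in either direction. With sh490 it was 1 of the 58, or 1.72%, which was higher, against 2.82% of all genes. None was so in the same direction with both hairpins, against 0.593% of all genes lower and 0.808% higher. In sh1362 6 of the 58, or 10.3%, were at least 2-fold lower than in sh490, against 3.88% of all genes. That share is like the members' 10.5%. Their summed level in sh1362 was 94.0% of shGFP, against 65.4% for the 38 members; in sh490 these sums were 99.4% and 90.4%.

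Within that list, genes that process or retain SREBP differed between hairpins in both directions. MBTPS2, the protease that makes the second cut in SREBP, had 496, 186 and 375 counts in sh490, sh1362 and shGFP, a log2 difference of -1.30 between sh1362 and sh490. ERLIN2, a membrane protein that helps degrade sterol-regulated proteins, had 639, 1364 and 464 counts and a difference of 1.19. The other 6 of these 8 genes were higher in sh1362 than in sh490 by 0.03 to 0.62. HSD17B12, of fatty acid elongation, and FAXDC2 were lower in sh1362 by log2 differences of -1.28 and -1.19, and GGPS1 was higher by 0.75.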

How the data were processed

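Each library was deposited as a table of unnormalized read counts by gene. STAR 2.6.1c aligned the reads to GRCh38 and FastQC 0.11.8 checked them, per the submitters' processing notes. Counting used featureCounts 1.6.0 with the exons of GENCODE 32, per the file headers. The header sets no option for strand, so reads of both strands were added. Symbols were matched for 60295 of 60609 genes.

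edgeR 4.0.16 (R 4.3.3) compared both hairpins with shGFP: TMM, filterByExpr, robust quasi-likelihood test, two-sided, Benjamini-Hochberg over 15708 genes. It was tested on simulated data. Single libraries were compared without a test as log2 normalised CPM with a prior count of 2, for genes averaging at least 5 CPM. Percentages of a library's level carry exact 95% binomial intervals. These cover counting error only, because each level comes from 1 library. PCR copies of 1 molecule are counted separately, so the intervals may be too narrow even for that error. TPM was computed from exon lengths and used only to compare genes.

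All 39 members are named. Of the other lipid genes, those 2-fold from shGFP with both hairpins and the 3 farthest apart between hairpins each way are named, except 1 gene that is not reported here. Members and lists were chosen with earlier results of these data known. The libraries carried different hairpins, and the labels show no replicate culture of any hairpin. The p-values therefore rest on the distance between the hairpin libraries, in which hairpin, culture and technical differences cannot be told apart. Alternatives were DESeq2 1.42.0, limma-voom (limma 3.58.1), other scalings, prior counts and filters, and leaving out each hairpin, globin genes or mitochondrial genes.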

Additional observations from a re-analysis of the deposited data

How the results depend on the processing

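The count of members past edgeR's test was 0 and became 1, ABCA1, without a filter on low counts; under the other 6 alternatives it stayed at 0. Members 2-fold lower than shGFP numbered 1 with sh490 in every setting and 5 to 7 with sh1362, and 5 to 6 were 2-fold apart between the hairpins. All 684 recomputed fold values of single members stayed within their counting intervals, including those without globin or mitochondrial genome genes, which were chosen after seeing the data. The largest move was log2 0.07. These settings only rescale the same counts or change the prior count, so this outcome was nearly fixed in advance and does not bear on differences between cultures. Leaving out sh490 or sh1362 leaves 1 library against 1, a value with no test; the sign then differed from that of both hairpins together in 9 of 39 members each time. The SREBP control median with sh1362 moved from -0.10 to -0.93 and that of LXR and export from -0.58 to -1.29 where only genes averaging at least 20 CPM were kept, which leaves 4 and 2 genes. Between the hairpins these medians moved from -0.37 to -0.78 and from -0.58 to -0.77, and with sh490 that of LXR and export moved from -0.32 to -0.53. The squalene and sterol arm median, sh1362 against shGFP, moved from -0.53 to -0.70, both without a filter on low counts and at 20 CPM. No paired analysis was possible, because there was 1 control library and the labels pair no hairpin library with it. Depth most limits NR1H2, NR1H3 and ABCG1, which had 33 to 83 counts a library. It also limits other members in single libraries, such as ABCA1 (54 counts in sh1362), PMVK (61 in shGFP) and TM7SF2 (68 in shGFP).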
